A study of Rattus norvegicus with 84 samples.

Results

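The comparison described here set 7 arrays of rats given SAHA against 7 arrays of rats given vehicle, all after a water maze session and all carrying the region label DG, 14 of the 84 arrays of the study. The arrays were set by their column labels, a choice made with earlier results of these data known, and the deposited region label was kept. All rats were male F344xBN hybrids of 7 months. SAHA rats received 50 mg/kg SAHA in DMSO by injection and vehicle rats received DMSO alone, so every rat of both groups had been injected with the solvent. Injection came 10 min before the maze and 90 min before death. The maze session, abbreviated RPC for redundant place-cue, had 17 trials of at most 60 s with 15 s between them. In these trials the platform was visible or hidden. The session ended with a probe trial of 60 s, which the labels put 85 min after training onset. That time does not add up exactly with an injection 10 min before the maze and 90 min before death. Maze rats had also had 8 days of standard water maze training with 3 trials a day a week earlier. A further 7 SAHA and 7 vehicle rats stayed in the home cage without any maze training, and their arrays labelled DG served as the second setting in which the drug was given. Level means the normalized log2 signal of a probe, change means the level in SAHA rats minus that in vehicle rats, and a probe was called where its limma p-value, adjusted over all probes tested by the Benjamini-Hochberg method, was under 0.05.

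SAHA (suberoylanilide hydroxamic acid, vorinostat) blocks the zinc-dependent histone deacetylases, the enzymes that remove acetyl groups from histone tails and from many other proteins. Inhibition of these enzymes lets acetylation build up, and transcripts both rise and fall in consequence. The dentate gyrus is the entry station of the hippocampus, and its granule cells, like the pyramidal neurons of the CA fields, switch on immediate early genes such as Fos, Arc and Npas4 when an animal explores or learns. Many of these genes are switched on through CREB, a factor that binds the cAMP response element (CRE), and Crem encodes relatives of CREB that include repressors made from an internal promoter.

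The region label did not match the markers. Of 8 CA1 pyramidal neuron markers measured, 6 were higher in the 28 arrays labelled DG than in the 28 labelled CA1, and 8 of 9 dentate granule cell markers were lower. Wfs1, a CA1 marker, had a mean level of 10.69 ± 0.29 (SD, n = 28) under the label DG and 6.89 ± 0.78 under the label CA1. Mpped1, another, was detected on 28 of 28 arrays labelled DG and on 0 of 28 labelled CA1. Prox1, the transcription factor that marks granule cells, was detected on 4 of 28 arrays labelled DG and on 28 of 28 labelled CA1. The exceptions were Htr1a and Lefty1 among the CA1 markers and Pkp2 among the granule cell markers. Lefty1, Lct and Tdo2 were detected on 0 of 28 arrays under either label, so their order carries no information. The tissue is therefore called labelled DG throughout.

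Overall array quality was compared first. Probes were detected on 45.8% to 50.0% of the array in SAHA maze rats and on 45.8% to 48.2% in vehicle maze rats, a difference of means with an exact two-sided permutation p of 0.522 over 3432 regroupings. The mean signal ran from 594 to 778 in SAHA rats and from 574 to 746 in vehicle rats (exact permutation p = 0.840). SAHA array 2 had the highest share of detected probes, and p-values of this size do not show that the groups were alike. Of the 14 arrays, SAHA maze array 1 stood apart on the called probes and not on these measures. The count of called probes and the Tmem252 change are given below with and without it. Genes discussed below that were called only without it are named. The number of arrays, 7 per group, limits the precision.

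After the maze, 9 of 10858 probes tested were called, 0.0829% of them, 4 higher (0.0368%) and 5 lower (0.046%) in SAHA rats. They belong to 8 named genes and to a probe without a gene name. Apold1, Slc40a1, Tie1 and Csrp2 were higher with SAHA. Tmem252, Slc19a3, Kank3 and Crem were lower. At an unadjusted p under 0.05, 322 probes were higher (2.97%) and 369 lower (3.4%), 6.36% together. Most transcripts moved little: over the 7795 named genes, each read from its brightest tested probe, the median change was 0.0025, 3998 changes were above 0 and 3797 below, the median SE was 0.082, and 10 genes changed by more than 0.5 in either direction. Fewer cells of a type and less RNA per cell cannot be told apart in such tissue samples.

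Apold1, an immediate early gene of vascular endothelial cells that encodes an apolipoprotein L domain protein, rose most clearly. Its level ran from 7.77 through a median of 7.97 to 8.16 in SAHA maze rats, and from 7.03 through 7.25 to 7.52 in vehicle maze rats. Every SAHA array lay above every vehicle array, a separation that 16 probes showed in either direction (0.147%), 3 of them with SAHA higher. The change was 0.70 ± 0.11 (SE), 1.63-fold, with an adjusted p of 0.0022. It was called in each of the 14 fits that left out 1 array, with changes from 0.66 to 0.74.

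Tie1, an endothelial receptor tyrosine kinase that pairs with the angiopoietin receptor Tek, rose less. Levels ran from 7.62 through 7.81 to 7.91 in SAHA rats and from 7.10 through 7.44 to 7.63 in vehicle rats, and only SAHA maze array 1, at 7.62, fell within the vehicle range. The change was 0.40 ± 0.08, with an adjusted p of 0.034. A second, dimmer Tie1 probe gave 0.26 ± 0.09, with an adjusted p of 0.442, and was not called. Tie1 stayed called in 3 of the 14 fits that left out 1 array, those without SAHA array 1, vehicle array 1 or vehicle array 2, and the adjusted p reached 0.122 in the others.

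The endothelial marker list, to which Tie1 belongs, gives the setting of these vascular genes. Of 33 endothelial markers 27 were on the array and 22 were tested. Of these 1 was called (Tie1), 16 changes lay above 0 and the median change was 0.080, against 0.0025 over all genes. At an unadjusted limma p under 0.05, 5 were higher and 1 lower, as were 3.18% and 3.45% of all genes. Changes over the list ran from -0.19 to 0.43. Over all 7795 genes 0.103% were called and 51.3% of changes lay above 0, shares that apply beside every list below. The mean level over the 22 markers, Tie1 among them, ran from 8.56 to 8.67 in SAHA rats and from 8.41 to 8.59 in vehicle rats, so the groups overlapped. Egfl7, a secreted endothelial factor, had a change of 0.43 ± 0.11 (adjusted p = 0.202), Itm2a 0.26 ± 0.08 (adjusted p = 0.281) and Emcn, the endothelial surface protein endomucin, 0.20 ± 0.09 (adjusted p = 0.696). Cldn5, the tight junction claudin of brain endothelium, had -0.11 ± 0.07 (adjusted p = 0.875). Cdh5, Robo4 and Cd34 were detected on 0 of the 28 arrays labelled DG. Pericyte and smooth muscle markers had a median change of 0.106 over 7 tested and none called, and the mean level over them ran from 7.29 to 7.70 in SAHA rats and from 7.20 to 7.45 in vehicle rats. The part of the marker levels in the changes of Apold1 and Tie1 was not tested.

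Slc40a1 encodes ferroportin, the only known exporter of iron from mammalian cells. Its level ran from 7.37 through 7.75 to 7.87 in SAHA rats and from 7.00 through 7.23 to 7.64 in vehicle rats. The groups overlapped through vehicle array 7, at 7.64, and SAHA arrays 1 and 2. The change was 0.47 ± 0.09, 1.38-fold, with an adjusted p of 0.034. It stayed called in 3 of the 14 fits without 1 array (without SAHA array 1, SAHA array 2 or vehicle array 7), with an adjusted p of up to 0.131 elsewhere. Of 12 tested genes of iron handling, Slc40a1 was the 1 called, none was lower at an unadjusted p under 0.05, and the median change was 0.031.

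Slc19a3, which encodes a thiamine (vitamin B1) transporter, fell. Its probe was dim, with levels from 5.21 through 5.40 to 5.81 in SAHA rats and from 5.80 through 6.04 to 6.36 in vehicle rats, and SAHA array 1 alone reached the vehicle range. The probe was detected on 1 of 7 SAHA arrays and on 7 of 7 vehicle arrays, so most SAHA values lie at the edge of what the array measures. The change was -0.60 ± 0.10, 1.51-fold lower, with an adjusted p of 0.0083. All 14 fits without 1 array called it, with changes from -0.66 to -0.55. Of the 9 tested genes of thiamine transport and thiamine-dependent enzymes it was the only one called, and the other 8 had unadjusted p-values above 0.05, among them the related transporter gene Slc19a2.

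Tmem252, which encodes a small transmembrane protein, had the largest change of all genes tested. Levels ran from 5.46 through 5.77 to 7.55 in SAHA rats and from 7.03 through 7.33 to 7.63 in vehicle rats. SAHA array 1, at 7.55, lay among the vehicle arrays, while the other 6 ran from 5.46 to 6.41, below every vehicle array. The change was -1.22 ± 0.21, 2.33-fold lower, with an adjusted p of 0.0083, and without SAHA array 1 it was -1.47 ± 0.15. The probe was detected on 5 of 7 SAHA arrays and 7 of 7 vehicle arrays.

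The cytoskeletal genes moved in both directions. Kank3, of a family of proteins that organise actin at cell adhesions, fell from a vehicle range of 7.04 to 7.22 (median 7.14) to a SAHA range of 6.40 to 7.04 (median 6.54). SAHA array 1 overlapped the vehicle arrays and the other 6 did not. The change was -0.52 ± 0.09, with an adjusted p of 0.010, and it was called in 14 of 14 fits without 1 array. Csrp2, a LIM domain protein found in smooth muscle, ran from 8.07 through 8.54 to 8.76 in SAHA rats and from 7.64 through 8.08 to 8.14 in vehicle rats. SAHA array 2 was the 1 SAHA array inside the vehicle range. Its change was 0.48 ± 0.10, with an adjusted p of 0.038, called in 3 of 14 fits without 1 array (without SAHA array 1, SAHA array 2 or vehicle array 2) and with an adjusted p of up to 0.146 elsewhere. Of 15 tested genes of the KANK, LIM and SRF-target list these were the 2 called, and the median change was -0.027.

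Crem, the cAMP response element modulator, fell, and lay lower in every SAHA rat than in any vehicle rat. Levels ran from 8.34 through 8.52 to 8.62 in SAHA rats and from 8.75 through 8.79 to 8.99 in vehicle rats, so that the groups did not overlap, as for 13 probes with SAHA lower (0.12%). The change was -0.33 ± 0.06, 1.26-fold lower, with an adjusted p of 0.022. A second, dimmer Crem probe also separated the groups, with SAHA levels from 6.22 to 6.53 and vehicle levels from 6.55 to 6.83, a change of -0.34 ± 0.09 and an adjusted p of 0.202. Of the fits without 1 array 8 of 14 called Crem, and the others, without SAHA array 3, 4, 6 or 7 or vehicle array 1 or 3, gave adjusted p-values from 0.054 to 0.089. Among 16 tested genes of cAMP and CREB signalling Crem was the 1 called, while 13 changes lay below 0 and the median was -0.075. The probe without a gene name, ILMN_1355431, had a change of -0.34 ± 0.06 and an adjusted p of 0.022.

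**Figure D1:**
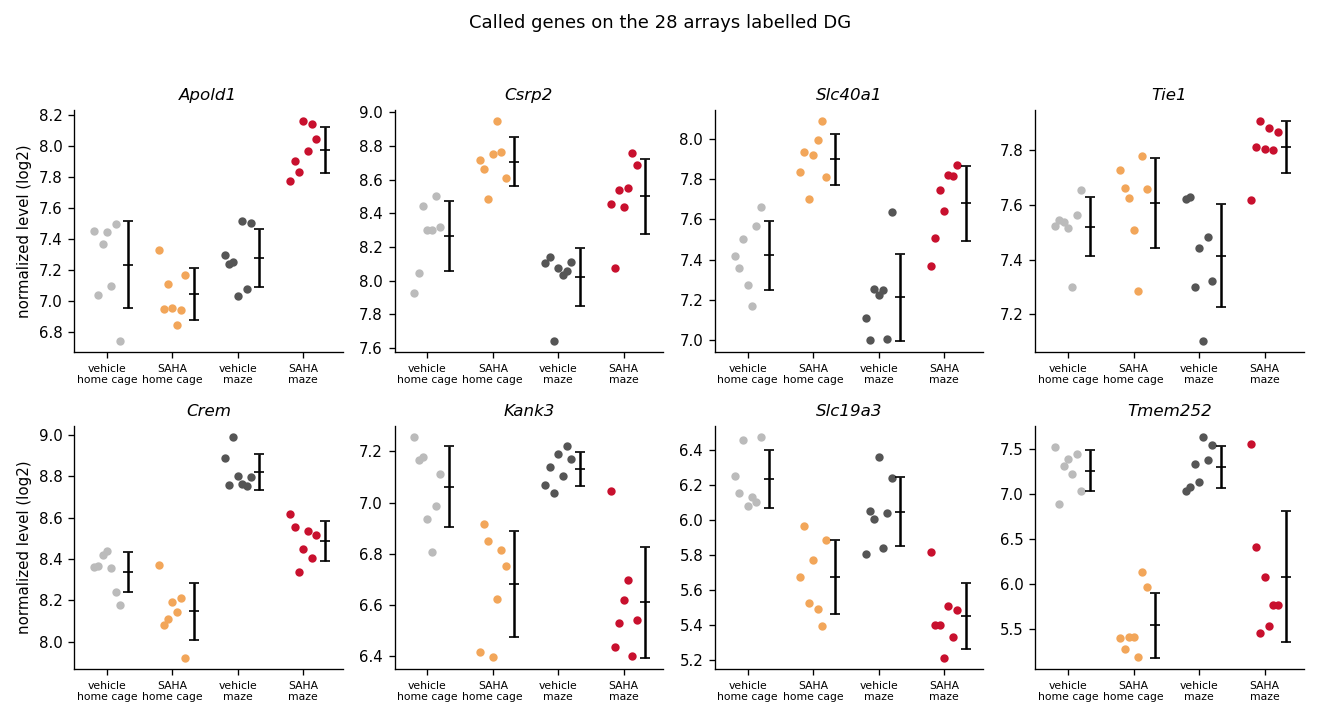
Normalized log2 level (vertical axis) of the 8 called genes on each of the 28 arrays labelled DG, 7 per group, with the mean and SD as a bar beside the points. Each panel has its own vertical scale. Apold1 and Crem show no overlap between SAHA and vehicle after the maze, and 1 SAHA maze array of Tmem252 lies at 7.55, among the vehicle arrays.

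Promoter sequences are shown for genes that carried these results, because a CRE was a motif of interest for Crem and for an immediate early gene such as Apold1. The sequences are the 250 bases before the annotated start, 5′ to 3′ on the gene's strand, from RefSeq with the build GRCr8, and 7 of the 8 called genes matched the table. Both strands were searched for 7 motifs, and capitals mark the matches. The full CRE was searched as TGACGTCA. The core of the CRE, which the full site contains, was searched as TGACG. The motif of the factor AP-1 was searched as TGANTCA. The E-box, which basic helix-loop-helix proteins bind, was searched as CACGTG. The GC box bound by Sp1 was searched as GGGCGG. The site of the ETS family was searched as CCGGAA. The TATA box of core promoters was searched as TATAAA. Crem has 3 annotated starts, and the internal pair, at chr17:58984547-58984796 and chr17:58985240-58985489, both on the plus strand, each held a full CRE. Apold1 lies at chr4:169552349-169552598 (plus strand), Slc19a3 at chr9:91747130-91747379 (minus strand) and Tmem252 at chr1:231743146-231743395 (plus strand).
Crem, first internal start: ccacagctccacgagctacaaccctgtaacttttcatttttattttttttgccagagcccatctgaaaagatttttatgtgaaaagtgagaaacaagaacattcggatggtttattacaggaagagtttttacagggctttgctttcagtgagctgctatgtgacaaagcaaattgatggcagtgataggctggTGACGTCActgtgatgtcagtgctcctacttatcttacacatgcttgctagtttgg
Crem, second internal start: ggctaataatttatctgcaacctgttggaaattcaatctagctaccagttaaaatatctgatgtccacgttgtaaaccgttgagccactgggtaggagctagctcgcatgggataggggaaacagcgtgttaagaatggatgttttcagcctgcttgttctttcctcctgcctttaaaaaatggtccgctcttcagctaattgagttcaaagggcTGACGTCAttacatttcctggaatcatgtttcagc
Apold1: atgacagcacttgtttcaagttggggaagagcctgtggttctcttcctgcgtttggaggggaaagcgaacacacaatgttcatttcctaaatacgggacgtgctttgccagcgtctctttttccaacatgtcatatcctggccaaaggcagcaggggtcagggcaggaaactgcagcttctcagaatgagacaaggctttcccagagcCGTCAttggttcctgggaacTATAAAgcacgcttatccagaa
Slc19a3: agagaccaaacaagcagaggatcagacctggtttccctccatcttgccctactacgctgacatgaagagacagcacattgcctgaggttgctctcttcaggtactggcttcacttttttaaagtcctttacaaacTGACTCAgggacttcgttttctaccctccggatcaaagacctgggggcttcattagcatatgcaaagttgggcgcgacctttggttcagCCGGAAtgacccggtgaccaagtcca
Tmem252: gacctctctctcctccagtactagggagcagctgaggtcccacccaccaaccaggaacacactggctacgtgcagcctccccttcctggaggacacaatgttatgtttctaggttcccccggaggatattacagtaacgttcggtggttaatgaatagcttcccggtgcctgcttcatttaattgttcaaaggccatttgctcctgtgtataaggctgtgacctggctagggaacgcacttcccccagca

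The CRE of the first internal Crem start lies at positions -56 to -49 and that of the second at -35 to -28, counted back from the start. Over all 33469 promoters 1.59% held a full CRE, over the 6854 promoters of tested genes 3.09%, and among the 9 promoters of called genes 2, both of Crem. The remaining Crem start, at chr17:58933816-58934065 and not shown, held no full CRE. It held CRE cores at -241 to -237 and -6 to -2, and Sp1 and ETS matches. Sp1 matched in 4 of the 9 promoters of called genes and 59.0% of those of tested genes, and the E-box in 0 of 9 and 8.32%. Apold1 held a CRE core at -42 to -38 and a TATA at -22 to -17. The core occurs in 18.2% of all promoters and in 28.8% of those of tested genes, and TATA in 12.9% and 6.58%. Slc19a3 held an AP-1 match at -115 to -109, as 6.34% of all promoters and 4.51% of those of tested genes do, and an ETS match at -26 to -21 (12.6% and 23.99%). No searched motif was found in the Tmem252 window. A match describes letters in this window and not a bound site, and which Crem start gave the transcripts the probes measured was not tested.

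SAHA maze array 1 moved less than the other SAHA arrays on the called probes. Averaged over the 9 probes, in the direction of the call, its distance from the vehicle mean was 0.181, against 0.488 to 0.696 in the other 6 SAHA arrays. It lay beyond every vehicle array for 3 of 9 probes, array 2 for 7 and the other 5 for all 9. Array 1 kept its Apold1 level, 7.77, above the vehicle arrays. Its correlation with the other arrays labelled DG was not low (median 0.994, with a range over all 28 of 0.988 to 0.994). It was singled out on these same probes, so the count without it is a description. Left out as 1 of the 14 arrays left out in turn, it changed the count of called probes most, from 9 to 23 (13 higher and 10 lower), which included all 9. The count was 4 without SAHA array 3, 4 or 7, 5 without SAHA array 6 or vehicle array 3, and from 6 to 9 without the others. In the fit of the 14 arrays alone 3 probes were called, and in 1 fit of all 84 arrays 4. Number 1 also had the highest Tmem252 level of the SAHA maze arrays labelled CA1, 6.75, and CA3, 7.35. Both lay within the vehicle ranges there, 6.55 to 7.57 and 6.80 to 7.71. For Slc19a3, number 1 was highest under CA1, at 5.98, and lowest under CA3, at 4.97. Whether equal numbers mark 1 rat is not stated by the labels, and the cause was not tested.

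**Figure D2:**
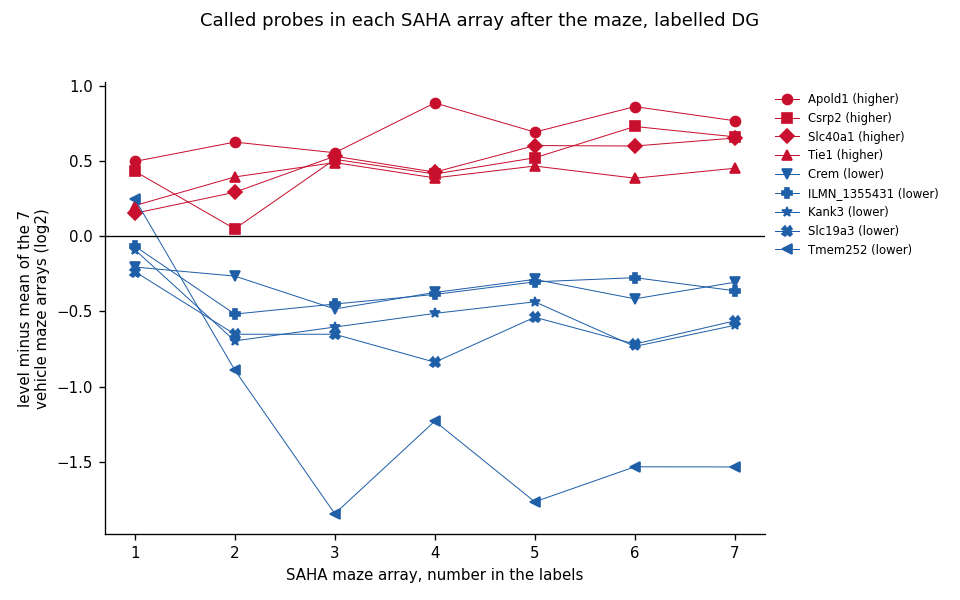
Level of each of the 9 called probes (markers) in each SAHA maze array minus the mean of the 7 vehicle maze arrays, in log2 units, labelled DG. Red probes were called higher and blue probes lower, and lines join 1 probe across arrays only to guide the eye, since the arrays have no order. Array 1 lies nearest 0 for most of the lower probes, with Tmem252 above 0.

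The genes that came next by p-value were not called in the fit of all 28 arrays labelled DG. Their values are given without a direction of change. Some were called under an alternative processing, Cavin3 under 3 of 11 and Ajuba and Slc7a5 under 1 of 11. Yeats4, S1pr2, Hyal2, Secisbp2, Ptpn2 and Mmaa were called under 0 of 11. Ajuba, Cavin3, Nes and Slc35e4 were each called in 2 of the 14 fits without 1 array. Without SAHA maze array 1, Ajuba, Slc7a5, Nes, S1pr2, Slc35e4, Apol3l1, Cavin3, Yeats4, Hyal2 and Ptpn2 were called. That array was singled out on the called probes, so this is a description. Among the next genes with a positive change, Ajuba, a LIM scaffold of cell junctions, had 0.40 ± 0.09 (adjusted p = 0.075). Slc7a5, the large neutral amino acid transporter of the blood-brain barrier, had 0.37 ± 0.08 (adjusted p = 0.082), with vehicle arrays within 8.87 to 8.94 and SAHA arrays from 8.88 to 9.48. Nes, the intermediate filament nestin of neural progenitors and growing vessels, had 0.58 ± 0.13 (adjusted p = 0.082) and was detected on 7 of 7 SAHA and 3 of 7 vehicle arrays. The others were Tm4sf1 (0.39), S1pr2, a sphingosine-1-phosphate receptor (0.31), Ifi30, a lysosomal thiol reductase (0.29), Slc35e4 (0.28) and Acvrl1, the endothelial BMP receptor ALK1 (0.38), with adjusted p-values from 0.094 to 0.167.

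On the negative side, Apol3l1, an apolipoprotein L gene, had -0.46 ± 0.10 (adjusted p = 0.059) and was detected on 3 of 7 SAHA and 7 of 7 vehicle arrays. Cavin3, a coat protein of caveolae, had -0.35 ± 0.07 (adjusted p = 0.059). Yeats4, a reader of acylated histone tails, had -0.26 ± 0.06 and Iws1, a partner of the elongation factor Spt6, -0.29 ± 0.07, both with an adjusted p of 0.082. Iws1 levels did not overlap between groups, from 8.63 to 8.83 with SAHA and from 8.85 to 9.27 with vehicle. The remaining genes were Hyal2, a hyaluronidase (-0.33), Secisbp2, which is needed to make selenoproteins (-0.32), Ptpn2, a tyrosine phosphatase (-0.32), and Mmaa, a mitochondrial cobalamin protein (-0.32), with adjusted p-values from 0.159 to 0.183.

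The home cage rats showed which of these changes also appeared without the maze. The home cage groups share no array with the maze groups. In the home cage 3 of 10858 probes were called (0.0276%), all lower with SAHA: Tmem252, Slc19a3 and Nfkbia. At an unadjusted p under 0.05 there were 702 (6.47%). Tmem252 had levels from 5.18 to 6.13 in SAHA rats and from 6.88 to 7.52 in vehicle rats, a change of -1.72 ± 0.21 (adjusted p = 3.9e-05). Slc19a3 had -0.56 ± 0.10 (adjusted p = 0.017). Among SAHA home cage arrays Tmem252 was detected on 2 of 7 and Slc19a3 on 3 of 7, against 7 of 7 vehicle arrays for both, so these changes are set against values mostly not above background and their exact size is uncertain. Both are called in the maze rats as well. Nfkbia, the inhibitor of NF-kappa-B and a gene that glucocorticoids induce, had -0.47 ± 0.08 (adjusted p = 0.017) in the home cage, and -0.24 ± 0.08 (adjusted p = 0.469) after the maze. The home cage count was 13 without SAHA home cage array 3, 1 without SAHA array 5 or vehicle array 3, 6 without SAHA array 7 or vehicle array 6, and 16 without vehicle array 7.

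Of the 8 genes called after the maze, 7 had a change of the same sign in the home cage. Slc40a1 had 0.48 ± 0.09 in the home cage (adjusted p = 0.052), Csrp2 0.44 ± 0.10 (adjusted p = 0.083) and Kank3 -0.38 ± 0.09 (adjusted p = 0.134), close to their values after the maze. Crem had -0.19 ± 0.06 (adjusted p = 0.499) and Tie1 0.09 ± 0.08 (adjusted p = 0.938). Over all probes 60.2% had the same sign in both settings, and of the 691 probes with an unadjusted p under 0.05 after the maze 552 did (79.9%).

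Whether the drug effect differed between maze and home cage was tested as an interaction, and 1 probe was called (0.00921%), that of Apold1. Apold1 levels in the home cage ran from 6.85 to 7.33 with SAHA and from 6.74 to 7.50 with vehicle, a change of -0.19 ± 0.11, and the groups overlapped. The drug effect after the maze exceeded that in the home cage by 0.89 ± 0.15 (adjusted p = 0.014). The difference was the same size and not called with the replicate number as a block (adjusted p = 0.110) or in 1 fit of all 84 arrays (adjusted p = 0.406). The count was 2 without SAHA home cage array 3 and 1 without any other single array. Zfp36, which encodes an mRNA-destabilising protein and is itself an immediate early gene, had an interaction of 0.80 ± 0.18 (unadjusted p = 7.5e-05, adjusted p = 0.410), and Egfl7 0.63 ± 0.16 (unadjusted p = 0.00056, adjusted p = 0.999). At an unadjusted p under 0.05 the interaction held 232 probes (2.14%).

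**Figure D3:**
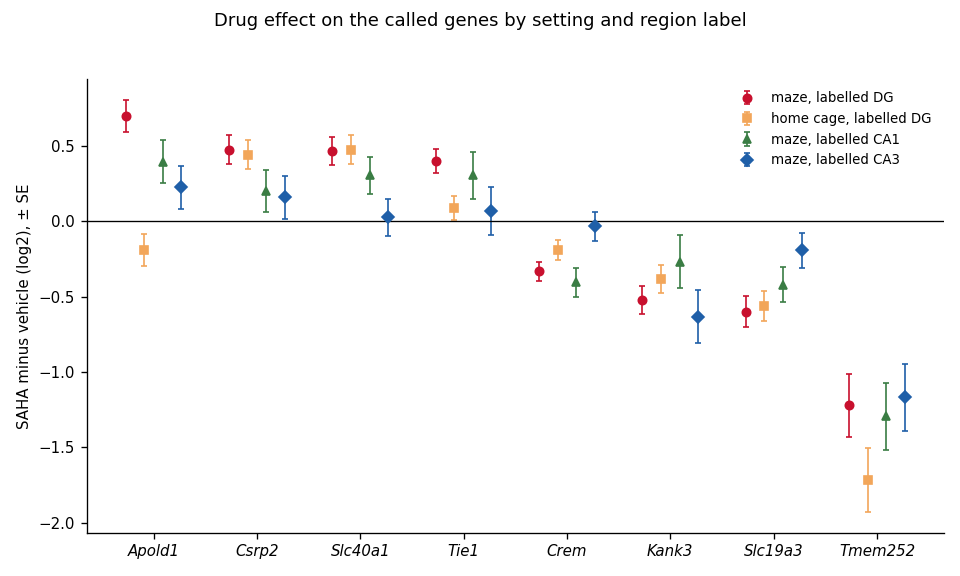
Change with SAHA (log2, vertical axis, with SE bars) of the 8 called genes after the maze and in the home cage under the label DG, and after the maze under the labels CA1 and CA3. Apold1 lies below 0 in the home cage at -0.19, and the other 7 genes lie on the same side of 0 in every setting shown. Under CA3, Crem, Slc40a1 and Tie1 lie within their SE of 0. The SE bars under DG come from the fit of the arrays labelled DG alone. Those under CA1 and CA3 come from the fit of all arrays of the study, so bar lengths cannot be compared between labels. In the fit of all arrays the SE under DG after the maze was larger for all 8 genes, such as 0.16 for Tie1 and 0.17 for Kank3.

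Of the 35 tested immediate early genes, 14 rose with the maze in vehicle rats and 22 in SAHA rats, 13 of them in both. None fell, and 12 were called in neither, among them Bdnf. In vehicle rats 35 of 10858 probes were called between maze and home cage (0.322%), 32 of them higher (0.295%), and in SAHA rats 157 (1.45%), the latter 131 higher (1.21%) and 26 lower (0.239%). These comparisons share arrays with the drug comparisons and include the earlier training of the maze rats. Fos, the prototype immediate early transcription factor, rose by 1.35 ± 0.17 with the maze in vehicle rats and by 1.14 ± 0.17 in SAHA rats. Npas4, an activity-dependent neuronal transcription factor, rose by 1.33 ± 0.15 and 0.92 ± 0.15. Its probe was detected on 1 of 7 home cage arrays in either drug group and on 7 of 7 maze arrays, so it passed the detection filter through the maze groups and its rises are set against values mostly not above background. Junb, a partner of Fos in AP-1, rose by 0.91 ± 0.07 and 0.65 ± 0.07. Arc, which acts at synapses, rose by 0.86 ± 0.13 and 0.53 ± 0.13, and Kdm6b, a histone demethylase, by 0.89 ± 0.10 and 0.78 ± 0.10. Egr1, a zinc finger transcription factor, rose by 0.67 ± 0.09 and 0.66 ± 0.09.

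None of the 6 genes just named was called between SAHA and vehicle maze rats. Fos ran from 7.65 through 8.22 to 8.65 with SAHA and from 8.01 through 8.50 to 8.81 with vehicle. The groups overlapped and the change was -0.19 (95% interval -0.54 to 0.15). Npas4 had -0.29 (-0.61 to 0.02), Arc -0.22 (-0.48 to 0.04), Junb -0.14 (-0.29 to 0.01) and Egr1 -0.09 (-0.27 to 0.10). Bdnf, a neurotrophin often followed after deacetylase inhibition, had -0.15 (-0.37 to 0.08). Kdm6b had -0.26 ± 0.10 (adjusted p = 0.516), with 6 of 7 SAHA arrays below every vehicle array. The share of all probes with such a count was not computed, so no decrease is read from it. Intervals that include 0 do not show that the groups were alike.

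Crem behaved like the maze genes in that the maze raised it in both groups, by 0.48 ± 0.06 in vehicle rats and by 0.34 ± 0.06 in SAHA rats. Its interaction was -0.14 ± 0.09 (unadjusted p = 0.125). Apold1 differed: the maze changed it by 0.04 ± 0.11 in vehicle rats (adjusted p = 0.941) and raised it by 0.93 ± 0.11 in SAHA rats (adjusted p = 2.1e-06). Egfl7 and Zfp36 rose by 0.80 ± 0.11 and 0.84 ± 0.12 with the maze in SAHA rats, with values of 0.17 ± 0.11 and 0.03 ± 0.12 in vehicle rats that were not called. Neither interaction was called. Home cage mean levels of Apold1, Egfl7 and Zfp36 were lower with SAHA than with vehicle. They were 7.04 against 7.23 for Apold1, 7.03 against 7.22 for Egfl7 and 8.58 against 9.03 for Zfp36. The rises in SAHA rats therefore start from a lower level.

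**Figure D4:**
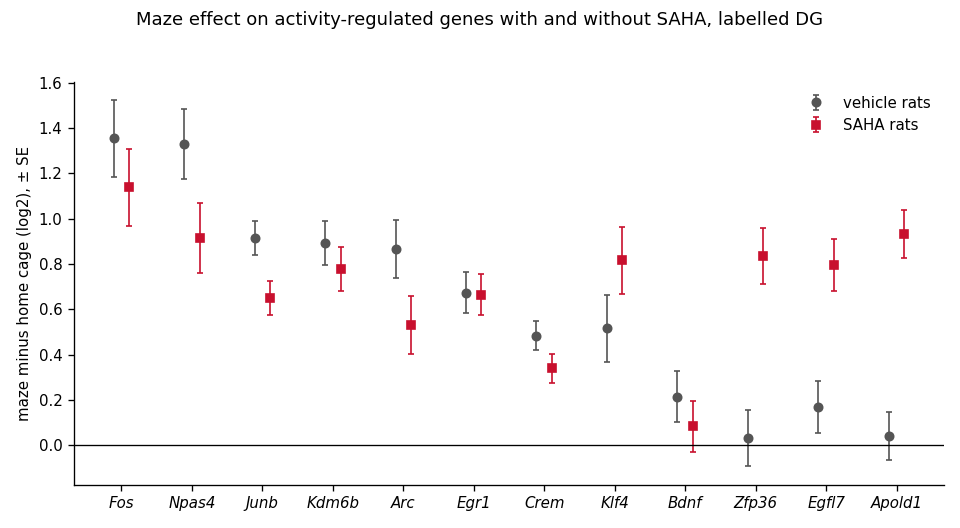
Maze minus home cage (log2, vertical axis, with SE bars) for 12 genes in vehicle rats (circles) and SAHA rats (squares), labelled DG. Fos, Npas4, Junb, Kdm6b, Arc, Egr1 and Crem rose in both groups. Zfp36, Egfl7 and Apold1 rose in SAHA rats and were near 0 in vehicle rats, a difference that was called for Apold1 and not for Zfp36 or Egfl7.

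Over the whole list of immediate early genes, 35 were tested, 1 was called higher (Apold1) and 1 lower (Crem). A further 5 had a higher and 3 a lower level with SAHA at an unadjusted p under 0.05, which 3.18% and 3.45% of all genes had. Positive changes included Klf4, a Kruppel-like factor, at 0.33 ± 0.15 (adjusted p = 0.722) and Zfp36 at 0.36 ± 0.12 (adjusted p = 0.454). The median of the list was -0.057 and its mean level ran from 8.75 to 8.91 with SAHA and from 8.75 to 8.93 with vehicle, so the list as a whole overlapped.

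The drug's targets and genes known from other systems to respond to deacetylase inhibitors were next examined. Of 6 zinc-dependent histone deacetylases tested none was called, and the changes ran from -0.12 to 0.13. Hdac1 had 0.13 ± 0.07, Hdac2 0.02 ± 0.08 and Hdac3 0.06 ± 0.09. Among 11 tested responsive genes none was called, 9 changes were above 0 and the median was 0.083. Mt1, a metallothionein, had 0.29 ± 0.10 (adjusted p = 0.454). Sin3a, the scaffold of a deacetylase complex, had 0.27 ± 0.08 (adjusted p = 0.348) among 12 tested acetyltransferases and complex subunits with a median of -0.027. Phf13, a histone reader, had 0.24 ± 0.09 (adjusted p = 0.588) after the maze and 0.40 ± 0.09 (adjusted p = 0.106) in the home cage.

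Other signalling lists held few calls. Of 17 tested genes of Tie, VEGF, Notch and BMP signalling 1 was called (Tie1), and Notch4 had -0.26 ± 0.09 (adjusted p = 0.454) and Acvrl1 0.38 ± 0.10 (adjusted p = 0.167). Of 17 glucocorticoid-responsive genes none was called and 12 changes were below 0, with a median of -0.049. Of 9 NF-kappa-B genes none was called, with Icam1, an adhesion molecule of activated endothelium, at 0.28 ± 0.08 (adjusted p = 0.281). Of 13 heat shock genes, 9 neurogenesis genes and 10 interferon and antigen presentation genes none was called. Mx1, an interferon-induced GTPase, had the largest positive change of all genes, 0.82, but its levels ran from 5.66 to 9.05 with SAHA and from 5.62 to 7.66 with vehicle, and it had an unadjusted p above 0.05.

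Large gene families and synaptic genes stayed near 0. Among 59 ribosomal protein genes the median change was 0.029 and among 53 oxidative phosphorylation subunits 0.025, with none called in either. Of 23 glutamate receptor and synaptic genes none was called, 18 changes were below 0 and the median was -0.039.

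Markers of other cell types are given beside these results because the tissue holds many cells. Of 12 tested microglial markers none was called and 11 changes were above 0, as were 51.3% of those of all genes, with a median of 0.116. The mean level over the microglial markers ran from 9.16 to 9.33 with SAHA and from 9.12 to 9.25 with vehicle. C1qc, a complement subunit, had 0.15 ± 0.06 and the fractalkine receptor gene Cx3cr1 0.16 ± 0.08. The 3 haemoglobin genes tested had a median change of 0.258, none called, with mean levels from 11.50 to 12.75 and from 11.11 to 11.96. Meningeal and fibroblast markers had a median of 0.097 over 6 tested, none called, with Lum, a collagen-binding proteoglycan, at 0.55 ± 0.23 (adjusted p = 0.649). Astrocyte, oligodendrocyte, interneuron, CA1 and CA3 pyramidal neuron markers had medians from -0.024 to 0.058 with none called. Granule cell markers had a median of -0.187 over 5 tested, with C1ql2 levels from 7.33 to 9.34 with SAHA and from 7.17 to 10.29 with vehicle. Of 2 tested choroid plexus markers none was called, and the median was -0.212. What these markers contribute to the called genes was not tested.

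**Figure D5:**
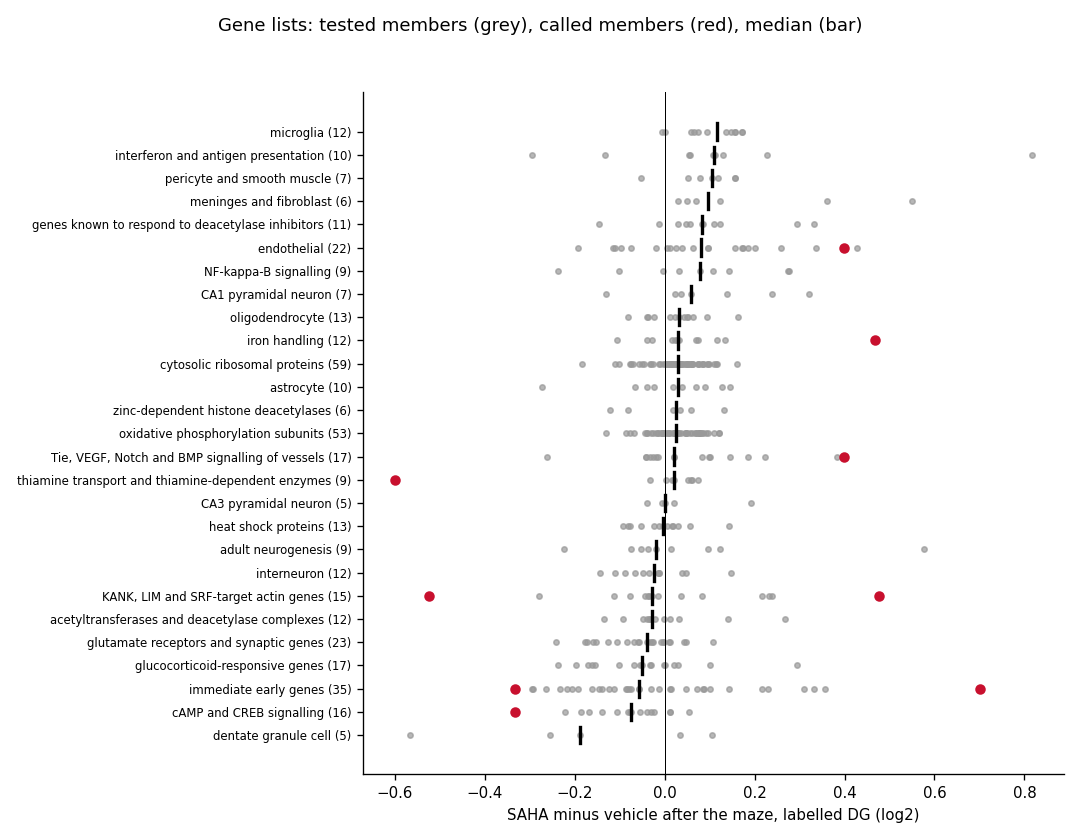
Change with SAHA after the maze (log2, horizontal axis) of every tested member of the gene lists with at least 5 tested members, labelled DG; the number tested stands after each name. Red points are called genes, grey points are not called, and the black bar is the list's median, which lies within -0.187 and 0.116 for all lists shown.

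Tissue labelled CA1 and CA3 was also measured after the maze and was taken to come from the same rats. Whether the SAHA effect under the label DG differed from that under another label was tested over 11403 probes, and limma called 0 of them (0%) against CA1, with 300 at an unadjusted p under 0.05 (2.63%), and 0 (0%) against CA3, with 648 (5.68%). All 8 called genes had a change of the same sign under the labels CA1 and CA3, a share not computed over all probes. Under CA3 the changes of Crem, Slc40a1 and Tie1 lay within their SE of 0. The SEs under CA1 and CA3 come from the fit of all arrays of the study. Those given above for DG come from the fit of the arrays labelled DG alone. In the fit of all arrays the SE under DG after the maze was 0.16 for Tie1 and 0.17 for Kank3. In the fit of the arrays labelled DG these were 0.08 and 0.09. Under CA1 and CA3, Tie1 had 0.30 ± 0.16 and 0.07 ± 0.16, Slc19a3 -0.42 ± 0.12 and -0.19 ± 0.12, and Csrp2 0.20 ± 0.14 and 0.16 ± 0.14. Tmem252 had -1.29 ± 0.22 and -1.17 ± 0.22 there, and Crem -0.41 ± 0.10 and -0.03 ± 0.10. These Tmem252 changes include the SAHA arrays numbered 1, which lay within the vehicle range under both labels. Apold1 had 0.39 ± 0.14 and 0.23 ± 0.14, and Kank3 -0.27 ± 0.17 and -0.63 ± 0.17. Slc40a1 had 0.30 ± 0.12 under CA1 and 0.03 ± 0.12 under CA3. With arrays weighted by their quality, 1195 probes were called between the labels DG and CA3, and none between DG and CA1.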

How the data were processed

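Hippocampal tissue labelled CA1, CA3 and DG was measured on 84 Illumina bead arrays (22523 probes), 7 per group, taken to come from 28 rats. Per the labels' protocols, labelling started from 0.5 µg of RNA. GenomeStudio 2011.1 is named in the submitters' processing notes. The authors deposited signal intensity per probe, not normalized, with a detection p-value for each array, per the file headers. In the deposited detection p-value columns 0.01 was read as 0, because it marks the brightest probes while values down to 0.0012 exist. That reading is inferred and applies to 29.8% of the entries. The authors also deposited a score for each probe and array, made as the z-score of the log10 signal within an array. Neither header nor label states this, and it was found by recomputing the deposited score from the deposited signal (largest difference 0.0130). It served as an alternative.

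Intensities were background-corrected by normexp (offset 16), quantile normalized over 84 arrays and put on the log2 scale with limma 3.58.1 (R 4.3.3). Probes with a detection p-value under 0.01 on at least 7 of 28 arrays labelled DG were tested (10858). The 4 groups labelled DG shared 1 linear model, with variances moderated by eBayes along a mean trend and p-values adjusted by Benjamini-Hochberg. Differences between regions came from all 84 arrays with the rat as random block. Arrays of equal drug, behaviour and number were taken as 1 rat, which the labels do not state. The consensus correlation between arrays of a rat so defined was -0.011. Each group's arrays came from different rats. Gene symbols came from the platform annotation (13793 probes with 1 symbol, 8730 with none), and a gene was read from its brightest tested probe. Replicate numbers were not taken to pair arrays. Slide positions were not used here. The script was tested on simulated data.

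The arrays, the 29 gene lists (12 of cell types) and the naming rule were chosen with earlier results of these data known. Named were called genes, the next genes by p-value up to 12 in each direction, up to 4 genes of each list and a fixed set. That set included every gene called after the maze, histone deacetylases and immediate early genes. Mx1 and the unnamed called probe were singled out after their values were seen. The alternatives were signals without background correction, the deposited scores, an offset of 50, median scaling, quantile normalization over 28 arrays, no filter, a strict filter, array weights, a replicate block, all 84 arrays in 1 fit, the 14 arrays alone and leaving out each array.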

Additional observations from a re-analysis of the deposited data

Results flagged for a closer look

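The drug effect on Apold1 differed between maze and home cage, by 0.89 on the log2 scale, in a test of the difference itself (adjusted p = 0.014). It was not called with the replicate block (adjusted p = 0.110) or in 1 fit of all 84 arrays (adjusted p = 0.406).

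Within the groups of 7 maze arrays labelled DG, 108 sets of values were examined for an array far from the other 6. Of these sets 11 held one, where chance gives about 5% of independent sets. The sets share arrays and many of their genes were picked by p-value, so no excess over chance can be read from the count. SAHA maze array 2 had the highest share of detected probes, 49.98%, where the next SAHA array had 47.0%, and the highest Klf4 level, 9.72. SAHA maze array 1 was lowest for Tie1 (7.62) and S1pr2 (7.31) and highest for Hyal2 (8.96) and Ptpn2 (8.44), in each case nearer to the vehicle arrays than its own group was. Among vehicle maze arrays, array 7 was highest for Slc40a1 (7.64), array 3 was lowest for Csrp2 (7.64) and Ifi30 (7.34), array 2 was highest for Slc35e4 (9.09) and array 1 was lowest for Junb (10.68).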

How the results depend on the processing

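The 9 calls after the maze became 5 with no filter on dim probes, 28 with array weights, 4 in 1 fit of all 84 arrays with the rat as a random block, and 3 with only the 14 arrays compared. Leaving out 1 array gave from 4 to 23. With the authors' z-scores 9 probes were called, 3 higher and 6 lower, against 4 and 5. The other alternatives gave from 6 to 11. The 3 home cage calls became 1 with the strict filter and 17 with array weights, and leaving out 1 array gave from 1 to 16. With the authors' z-scores, and with no background correction, 4 were called there, 1 higher and 3 lower. The 1 interaction call became 0 in the fit of all 84 arrays, with 91 probes at an unadjusted p under 0.05, and leaving out 1 array gave from 1 to 2. With the replicate block the counts were 10 after the maze, 5 in the home cage and 0 for the interaction, with 223 probes of the interaction at an unadjusted p under 0.05 and Apold1 at an adjusted p of 0.110. Numbers were not taken to pair arrays, since deviations of same-numbered SAHA and vehicle arrays correlated above 0.1 in 2 of 7 maze pairs (-0.223 to 0.195) and 4 of 7 home cage pairs (-0.114 to 0.213). Of 7 SAHA maze arrays, 1 correlated best with its own number. The difference between the labels DG and CA3 went from 0 to 1195 calls with array weights. The cause was not tested.

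Apold1 and Slc19a3 were called after the maze under every alternative in which they were tested, Tmem252 under 9 of 10 (adjusted p = 0.086 with only the 14 arrays) and Kank3 under 10 of 11 (adjusted p = 0.989 in the fit of all 84 arrays). Tie1 was called under 6 of 11, Crem under 7 and Slc40a1 and Csrp2 under 8. No called change reversed its sign. Small uncalled ones did, such as Hdac2 (0.02, down to -0.03) and the heat shock median (-0.0041 against 0.0092 with median scaling). Dim probes such as Slc19a3 are limited by their signal over background.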
